A study of Mus musculus with 15 samples.

Results

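Expression in B16.F10 cells that received both Hif-1α siRNA and doxorubicin was compared with that in cells that received a negative control siRNA and no drug. B16.F10 is an established mouse melanoma line, and all cells were grown in 1% oxygen. In the combined treatment (Hif1a_siRNA_Dox), cells were transfected with 25 nM siRNA against Hif-1α, and after 24 h doxorubicin was added at 0.25 µM for another 24 h. The negative control (NC_siRNA) was transfected with 25 nM of a control siRNA. The comparison used 6 of the 15 libraries, 3 a group, and the 12777 genes that the deposited tables list for both groups, of 13172 listed for any group. The other 9 libraries came from cells given Hif-1α siRNA alone, doxorubicin alone or neither (Control), 3 libraries each. Both sides of the comparison were transfected, and they differ in the siRNA target and in the drug, so the shares of the knockdown and of doxorubicin in a difference cannot be told apart within it. The time between transfection and harvest is not given separately for the groups without the drug, and the labels do not say whether the 3 biological replicates of a group were separate cultures, so the p-values measure the spread between these libraries.

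Hypoxia-inducible factor 1 (HIF-1) is a pair of proteins, HIF-1α and ARNT. In low oxygen the prolyl hydroxylases that mark HIF-1α for destruction through VHL lose activity, and HIF-1 binds a short core motif (searched here as ACGTG) near genes for glucose uptake, glycolysis, pH control and mitophagy. Doxorubicin is an anthracycline that traps topoisomerase II on DNA, inserts between base pairs and evicts histones. It is known for double-strand breaks, p53 activation and reduced transcription of parts of the genome.

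The libraries held 23825110 to 28734303 counted reads in the combined treatment and 26345967 to 27394448 in the negative control. Levels below are CPM values, the reads of a gene scaled to the library total with TMM factors, and a gene is called when edgeR's quasi-likelihood test gave a Benjamini-Hochberg adjusted p under 0.05 over the 12725 genes tested. By that rule 10624 genes (83.5%) were called, 5447 higher (42.8%) and 5177 lower (40.7%), and in 10787 genes (84.8%) the libraries of the groups did not overlap. At this background a called member, or one whose libraries do not overlap, is the usual case, and the size and direction of the changes carry the description. CPM values are shares of a library, so a change in the RNA content of the cells is not seen in them. In bulk RNA, lower expression per cell and fewer cells that express a gene cannot be told apart. Mitochondrially encoded genes took 4.62 ± 0.63% of the reads in the combined treatment and 1.88 ± 0.15% in the negative control (SD, n = 3 each; exact permutation p = 0.1, two-sided, the smallest that 3 against 3 allow). Without these genes 5438 genes were called higher and 5173 lower.

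The promoters of 4 HIF targets with large falls are shown to place the HIF core motif, present in 3 and without a match in the first Aldoa window. Each window runs from 250 bases before to 50 bases after the annotated start, 5′ to 3′ on the gene's strand, from RefSeq on GRCm38.p6. Capitals mark ACGTG or its reverse complement CACGT; in Bnip3 and Bhlhe41 the 2 overlap as CACGTG, which is also the E-box core. Car9 lies at chr4:43506776-43507075 (+), Bnip3 at chr7:138909457-138909756 (-), Bhlhe41 at chr6:145865371-145865670 (-), and the first of 3 Aldoa windows at chr7:126800398-126800697 (-).
Car9: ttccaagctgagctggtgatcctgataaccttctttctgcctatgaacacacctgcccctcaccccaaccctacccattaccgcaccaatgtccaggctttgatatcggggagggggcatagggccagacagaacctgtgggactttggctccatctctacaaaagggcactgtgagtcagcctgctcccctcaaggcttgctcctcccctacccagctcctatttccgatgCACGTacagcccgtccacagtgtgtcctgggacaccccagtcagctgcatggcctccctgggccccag
Bnip3: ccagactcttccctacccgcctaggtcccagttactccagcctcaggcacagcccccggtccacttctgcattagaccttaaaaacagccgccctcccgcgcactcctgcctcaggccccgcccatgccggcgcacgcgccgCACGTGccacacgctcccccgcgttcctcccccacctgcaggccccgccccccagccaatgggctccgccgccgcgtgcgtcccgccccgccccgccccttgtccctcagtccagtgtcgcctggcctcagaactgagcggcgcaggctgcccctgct
Bhlhe41: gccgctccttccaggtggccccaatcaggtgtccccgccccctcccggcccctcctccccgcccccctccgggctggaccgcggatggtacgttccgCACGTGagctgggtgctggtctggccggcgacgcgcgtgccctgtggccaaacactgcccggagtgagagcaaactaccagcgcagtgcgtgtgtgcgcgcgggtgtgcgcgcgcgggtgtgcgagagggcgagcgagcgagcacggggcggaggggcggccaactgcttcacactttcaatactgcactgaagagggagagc
Aldoa: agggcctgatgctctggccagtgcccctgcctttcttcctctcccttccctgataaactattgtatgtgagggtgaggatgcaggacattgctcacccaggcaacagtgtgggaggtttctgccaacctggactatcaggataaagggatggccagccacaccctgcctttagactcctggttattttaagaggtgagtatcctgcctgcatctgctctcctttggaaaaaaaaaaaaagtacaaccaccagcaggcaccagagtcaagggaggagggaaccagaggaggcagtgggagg
The motif begins 18 bases before the start in Car9, 108 bases before it in Bnip3 and 153 bases before it in Bhlhe41. The first Aldoa window holds no match. The other Aldoa windows are not shown, whereas the shares of genes below count a match in any window of a gene. Over all 32851 windows in the table, 19.6% held the motif on either strand, and 30.2% of the 9575 tested genes with a window had it in at least 1 window. The share was 12 of 20 matched HIF targets in glycolysis and 17 of 21 matched HIF targets outside it, lists that were chosen as known targets. Among genes called lower it was 31.7% and among genes called higher 29.0%.

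Hif1a RNA, the siRNA's target, was low in every library of the combined treatment. Hif1a (chr12:73901324-73947554) had 13.9, 11.9 and 14.6 CPM in the combined treatment, against 298, 276 and 272 CPM in the negative control. The groups did not overlap, and the level was 20.9-fold lower (log2 fold change -4.39 ± 0.10, SE; adjusted p 2.35e-15). The 15-library fit, whose CPM values differ slightly from those of the 6-library fit through its scaling, placed Hif1a at 13.1 CPM in the combined treatment, 17.2 with Hif1a siRNA alone, 142 with doxorubicin alone, 274 with negative control siRNA and 217 in untreated cells. The level in the combined treatment was below that of Hif1a siRNA alone (log2 difference -0.39 ± 0.09; adjusted p 0.000397).

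Most of the HIF system beside Hif1a was lower as well. Of 9 tested subunits and regulators, a list that includes Hif1a itself, 8 fell and none rose, where 40.7% of all genes fell. The median log2 fold change of the 9, Hif1a included, was -2.38, beside 0.06 over all genes tested. Arnt, the partner subunit, had 12.7, 12.5 and 12.5 CPM in the combined treatment, against 209.7, 205 and 199.9 CPM in the negative control. That is a fall of about the size seen for Hif1a (log2 fold change -4.03 ± 0.09; adjusted p 1.63e-15), although Arnt is not the siRNA's target. In the 15-library fit Arnt stood at 12.3 CPM in the combined treatment, 184 with Hif1a siRNA alone, 9.19 with doxorubicin alone, 199 with negative control siRNA and 205 in untreated cells, so both groups with doxorubicin were low and all 3 without it were high. Egln1, a prolyl hydroxylase and itself a HIF target, had 35.7 against 502 CPM (combined treatment against negative control), Egln3 had 3.6 against 17.7 CPM and Egln2 18.3 against 25.8 CPM. Vhl, the ubiquitin ligase subunit that binds hydroxylated HIF-1α, had 22.7 against 164 CPM. Hif1an, the asparaginyl hydroxylase FIH, had 8.7 against 35.3 CPM, and Cited2, which competes with HIF-1α for its coactivator, 80.0 against 416 CPM. Epas1, which encodes HIF-2α, was not called: it had 35.4, 30.2 and 38.5 CPM in the combined treatment, against 41.5, 33.4 and 32.3 CPM in the negative control, and its libraries overlapped (adjusted p 0.746). Hif3a and Arnt2 were not listed for both groups.

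**Figure D1:**
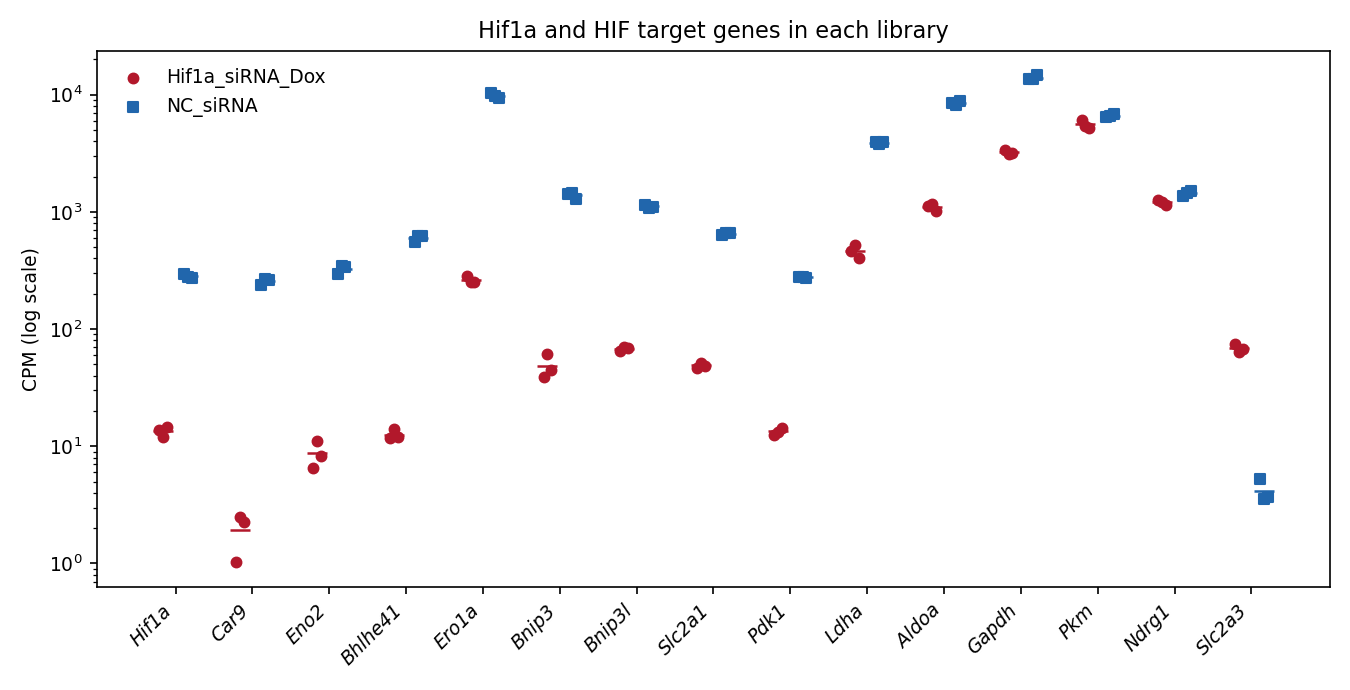
CPM on a log axis for Hif1a and 14 HIF target genes, with circles for the 3 combined-treatment libraries (Hif1a_siRNA_Dox), squares for the 3 negative control libraries (NC_siRNA) and a bar at each mean. Slc2a3 alone among these 15 genes is higher in the combined treatment, and Pkm and Ndrg1 show the smallest differences.

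Genes of glucose uptake and glycolysis were mostly lower. Of 21 tested HIF targets in this group 19 fell and 2 rose (median log2 fold change -2.52), and 18 of the 19 fell at least 2-fold, which 25.8% of all genes did. The 4 of smallest adjusted p were Pdk1, Slc2a1, Slc16a3 and Hk2. Pdk1, the kinase that keeps pyruvate out of the mitochondrial citrate cycle, had 12.6, 13.3 and 14.2 CPM in the combined treatment, against 278, 280.0 and 273 CPM in the negative control (log2 fold change -4.38 ± 0.09). Slc2a1, the glucose transporter GLUT1, had 46.9, 51.6 and 48.2 CPM in the combined treatment, against 631, 656 and 659 CPM in the negative control (-3.73 ± 0.08). The lactate exporter Slc16a3 (MCT4) and hexokinase 2 were lower by similar factors: Slc16a3 averaged 23 against 334 CPM and Hk2 42.5 against 451 CPM, combined treatment against negative control. All libraries of the negative control lay above all libraries of the combined treatment for these 4 genes.

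The 2 members that rose were Slc2a3 and Pfkfb4. Slc2a3, the glucose transporter GLUT3, had 73.8, 64 and 67.4 CPM in the combined treatment, against 5.29, 3.55 and 3.71 CPM in the negative control (log2 fold change 4.03 ± 0.14; adjusted p 2.56e-13). Pfkfb4, which makes the activator of phosphofructokinase, had 19.3, 17.7 and 18.2 CPM in the combined treatment, against 5.52, 5.7 and 4.86 CPM in the negative control (1.78 ± 0.14). Pkm, pyruvate kinase, had the smallest fall of the list: 6123, 5415 and 5238 CPM in the combined treatment, against 6468, 6620.0 and 6782 CPM in the negative control (-0.24 ± 0.08; adjusted p 0.00812). With upper-quartile scaling Pkm no longer passed the test (log2 fold change -0.10). Slc2a3 was high with doxorubicin alone too: the 15-library levels were 66.6 CPM in the combined treatment, 14.7 with Hif1a siRNA alone, 80.7 with doxorubicin alone, 4.07 with negative control siRNA and 4.43 in untreated cells. The enzymes between fell by more than Pkm; among those chosen after their values were seen, Ldha had 462 against 3886 CPM and Gapdh 3224 against 13989.6 CPM, combined treatment against negative control. Gapdh, Eno1, Aldoa and other glycolytic genes have near-identical processed copies in the mouse genome, so their counts are uncertain where reads could be shared.

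HIF targets outside glycolysis fell just as widely: 27 of 28 fell, 22 of them at least 2-fold, 1 rose, and the median log2 fold change was -2.71. Over all genes tested, 40.7% fell and 25.8% fell at least 2-fold. Ero1a, the oxidase that forms disulfide bonds in the endoplasmic reticulum, had 282, 254 and 249 CPM in the combined treatment, against 10230.0, 9667 and 9333 CPM in the negative control, a log2 fold change of -5.22 ± 0.09. Bhlhe41, a repressor of the circadian clock, had 11.7, 14 and 12 CPM in the combined treatment, against 552, 618 and 624 CPM in the negative control (-5.57 ± 0.10). Selenbp1 averaged 41.4 against 1026 CPM and Bnip3l, a mitophagy receptor, 67.8 against 1113 CPM, combined treatment against negative control. Reads of Selenbp1 and its close copy Selenbp2 could be shared, as could those of Bnip3l and its pseudogene. Car9, the membrane carbonic anhydrase that keeps hypoxic cells from acidifying, had the largest fall of the list: 1.02, 2.5 and 2.26 CPM in the combined treatment, against 236, 268 and 261 CPM in the negative control (-7.04 ± 0.20; adjusted p 2.93e-11). The exception was Ndufa4l2, a mitochondrial complex subunit paralog, at 2.56, 1.83 and 1.76 CPM in the combined treatment, against 1.15, 0.604 and 0.689 CPM in the negative control (adjusted p 0.00215). Lox, Car12 and Stc2 were not listed for both groups.

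The HIF targets did not all stand in the same place relative to the groups given a single agent. Against Hif1a siRNA alone, 23 of the 49 tested HIF targets were higher in the combined treatment and 22 lower. This split was near that of all 12721 genes, of which 42.6% were higher and 41.6% lower (84.2% in either direction), so it is no trait of HIF targets. Against doxorubicin alone, 9 were higher and 31 lower, where 21.5% and 20.7% of all genes were (42.2% in either direction). Within glycolysis 17 of 21 were lower than with doxorubicin alone, with a median log2 difference of -0.90. The group given doxorubicin alone was not transfected, so the siRNA and the lipoplex cannot be told apart in that contrast. Levels of 4 of the 49 HIF targets lay at least 2-fold below those of every other group, where 0.637% of all genes did. Car9 stood at 1.88 CPM in the combined treatment, 9.24 with Hif1a siRNA alone, 7.87 with doxorubicin alone, 248 with negative control siRNA and 235 in untreated cells. Bnip3, a mitophagy receptor, stood at 46.9 CPM in the combined treatment, 146 with Hif1a siRNA alone, 119 with doxorubicin alone, 1348 with negative control siRNA and 1320.3 in untreated cells. The remaining 2 were Bnip3l and the glycolytic enzyme Aldoa: Bnip3l had 66.1 CPM in the combined treatment, 150.4 with Hif1a siRNA alone, 178 with doxorubicin alone, 1081 with negative control siRNA and 1447 in untreated cells, and Aldoa had 1077 CPM in the combined treatment, 3375 with Hif1a siRNA alone, 4107 with doxorubicin alone, 8226 with negative control siRNA and 13602 in untreated cells. In all 4 the combined treatment was at least 2-fold below each of the others.

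Other targets, chosen here after their values were seen, had levels near those of 1 single agent. Bhlhe41 had 12.3 CPM in the combined treatment, 503 with Hif1a siRNA alone, 10.1 with doxorubicin alone, 581 with negative control siRNA and 532 in untreated cells; it was low in both groups with doxorubicin and high in the 3 without. Kdm4c, a histone demethylase, had the same arrangement at 7.95 CPM in the combined treatment, 84.8 with Hif1a siRNA alone, 6.43 with doxorubicin alone, 101 with negative control siRNA and 92 in untreated cells. Ndrg1, a stress-induced gene widely used as a hypoxia marker, went the other way: 1179 CPM in the combined treatment, 149.9 with Hif1a siRNA alone, 1372 with doxorubicin alone, 1397 with negative control siRNA and 1469 in untreated cells. Its lowest level was with Hif1a siRNA alone, and against that group the combined treatment was higher by 2.98 ± 0.06 on the log2 scale (adjusted p 3.55e-21). Against the negative control Ndrg1 was lower by a small margin, 1272, 1210.3 and 1150.0 CPM in the combined treatment, against 1369.9, 1446 and 1499 CPM in the negative control (log2 fold change -0.25 ± 0.08; adjusted p 0.00614), and with upper-quartile scaling it did not pass the test (-0.11).

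**Figure D2:**
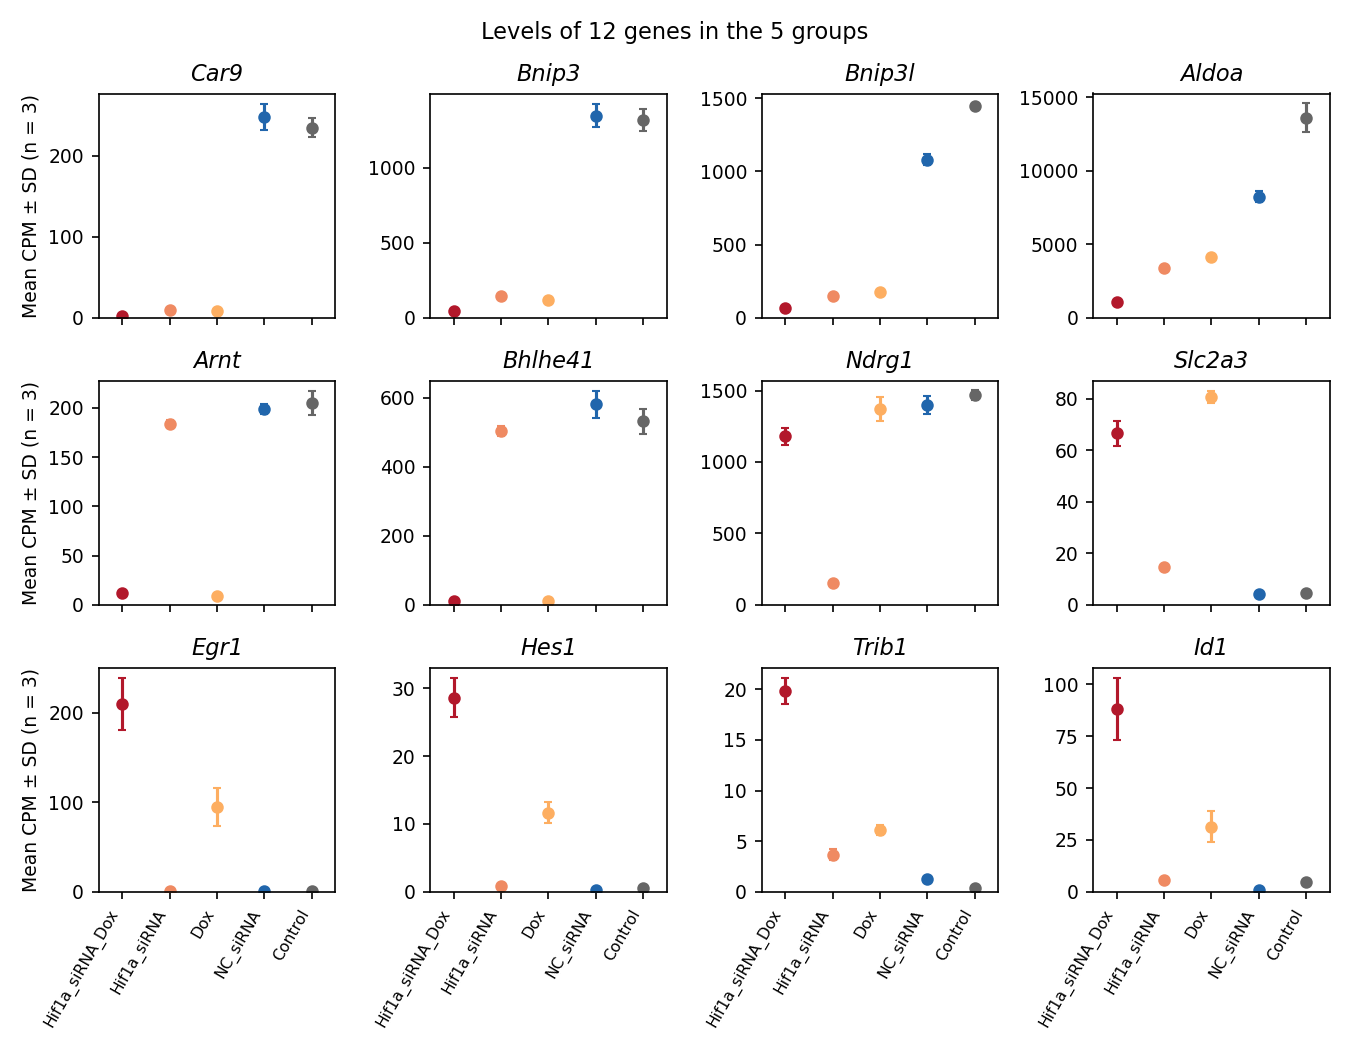
Mean CPM ± SD (n = 3) of 12 genes in the 5 groups from the 15-library fit, each panel with its own linear axis from 0; groups run from the combined treatment through Hif1a siRNA alone, doxorubicin alone and negative control siRNA to untreated cells. Car9, Bnip3, Bnip3l and Aldoa are lowest, and Egr1, Hes1, Trib1 and Id1 highest, in the combined treatment, while Arnt and Bhlhe41 are low in both groups with doxorubicin and Ndrg1 is low with Hif1a siRNA alone.

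Targets of p53, the transcription factor activated by DNA damage, moved in both directions. Of 23 tested 16 rose, 4 fell and 3 were not called (median log2 fold change 0.45). Among all genes 42.8% rose and 40.7% fell. The polo-like kinase Plk3 had 163, 150.2 and 142 CPM in the combined treatment, against 3.55, 2.98 and 3.33 CPM in the negative control (log2 fold change 5.53 ± 0.11), and Plk2 had 395, 369.8 and 299.5 CPM in the combined treatment, against 26.8, 25 and 23.4 CPM in the negative control (3.82 ± 0.11). The nuclease Aen averaged 77.5 against 12.6 CPM and the caspase-2 platform Pidd1 28.2 against 1.48 CPM, combined treatment against negative control. Cdkn1a was among the 4 that fell. Cdkn1a, the cell cycle inhibitor p21, had 249, 268 and 242 CPM in the combined treatment, against 642, 674 and 641 CPM in the negative control (-1.37 ± 0.07; adjusted p 4.44e-11). Gadd45a averaged 21.1 against 65.4 CPM, Bbc3 (PUMA) 17.9 against 55.1 CPM and the translesion polymerase Polk 27.8 against 48.5 CPM. Ddb2, Sesn2 and Rrm2b did not pass the test, with log2 fold changes of -0.26, -0.23 and 0.11; Sesn2 passed without combined-treatment library 1 (adjusted p 0.0435) and Ddb2 without library 2 (0.023). Phlda3 was among the 16 that rose, and its libraries overlapped. Its call was lost without negative control library 1 or 2 or combined-treatment library 1 or 2 (adjusted p 0.0563 to 0.154). Pmaip1, Fas, Gdf15, Perp and Eda2r were not listed for both groups.

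Doxorubicin's own target was lower in RNA. Top2a, topoisomerase IIα, had 69.4, 73.7 and 77.3 CPM in the combined treatment, against 293, 279 and 299 CPM in the negative control (log2 fold change -1.98 ± 0.08), and Top2b averaged 90.0 against 136 CPM and Top1 77.4 against 182 CPM, combined treatment against negative control. Top3a went the other way, with 113, 128 and 128 CPM in the combined treatment, against 7.92, 9.17 and 8.84 CPM in the negative control (3.83 ± 0.10; adjusted p 1.6e-14), as did the mitochondrial Top1mt at 22.5 against 9.86 CPM. Among transporters that export anthracyclines, Abcc1 (72.1 against 330.4 CPM) and Abcg2 (9.86 against 23.2 CPM) fell and Abcb1b (7.7 against 5.15 CPM) rose. Of 5 reductases in the list, Nqo1 (32.1 against 5.92 CPM), Cbr3 (5.3 against 0.664 CPM), Akr1a1 (884 against 397 CPM) and Cbr1 (log2 fold change 0.55) rose, and Por was not called (66 against 61.1 CPM; adjusted p 0.255). In total 8 of 16 tested members rose, 5 fell and 3 (Por, Top3b and Tdp1) were not called, with a median log2 fold change of 0.28. Among all genes 42.8% rose and 40.7% fell.

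Genes of the damage response were called in both directions. Of 19 DNA damage kinases and end joining factors 10 rose and 7 fell, where 42.8% of all genes rose and 40.7% fell. Nbn, the nibrin subunit of the MRN break sensor, had 5.3, 6.24 and 3.3 CPM in the combined treatment, against 62.9, 58.2 and 60.9 CPM in the negative control (log2 fold change -3.60 ± 0.17), whereas its partner Rad50 averaged 85.8 against 39.3 CPM and Mre11a was not called at 33 against 30.3 CPM, combined treatment against negative control. The checkpoint kinases moved apart: Chek1 had 22.1, 24.2 and 23.9 CPM in the combined treatment, against 2.48, 3.24 and 3.68 CPM in the negative control (2.90 ± 0.16) and Chek2 had 7.09, 5.47 and 5.81 CPM in the combined treatment, against 19.2, 18.8 and 18.8 CPM in the negative control (-1.63 ± 0.14). Atr fell (20.1 against 42.9 CPM) and Atm rose (73.8 against 58.6 CPM), though without combined-treatment library 3 Atm had an adjusted p of 0.0516. Both Ku subunits rose, Xrcc5 at 88.1 against 40.7 CPM and Xrcc6 at 44.8 against 19.6 CPM, while their kinase Prkdc fell (13.5 against 30.4 CPM). Of 24 homologous recombination and Fanconi genes 14 rose and 5 fell (median log2 fold change 0.69). Fanca averaged 129 ± 19.2 CPM in the combined treatment and 11.9 ± 0.792 CPM in the negative control (SD, n = 3 each), Exo1, a nuclease that resects DNA ends, 20.2 against 1.53 CPM, Palb2 27.7 against 4.57 CPM and Xrcc3 14.9 against 1.57 CPM. Among those that fell were the helicase Blm and Fancc, with log2 fold changes of -0.77 (Blm) and -0.74 (Fancc).

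DNA replication genes had a median log2 fold change of 2.22, the highest of the 24 lists plotted by member, which leave out the markers of other cell types: 33 of 41 rose, 30 of them at least 2-fold where 27.6% of all genes did, 4 fell and 4 were not called. Rrm2, the small ribonucleotide reductase subunit, had 359.7, 341 and 345 CPM in the combined treatment, against 39.7, 33.4 and 41.7 CPM in the negative control (log2 fold change 3.19 ± 0.09; adjusted p 3.06e-14). Uhrf1, which brings DNA methyltransferase to new DNA, averaged 204 against 20.5 CPM and the origin factor Mcm10 65.1 against 4.99 CPM, combined treatment against negative control. The partner subunit Rrm1 fell, with 49.5, 45.8 and 37.1 CPM in the combined treatment, against 116, 113 and 115 CPM in the negative control (-1.38 ± 0.10). Also lower were the clamp loader Rfc1 (17.1 against 100.1 CPM), the licensing inhibitor Gmnn (3.85 against 11.8 CPM) and the histone mRNA binding protein Slbp (30.5 against 36.3 CPM); Slbp did not pass without negative control library 1 or 3 or combined-treatment library 3 (adjusted p 0.0843 to 0.11). Against Hif1a siRNA alone, 23 of the 41 were higher and 13 lower in the combined treatment, where 42.6% and 41.6% of all genes were. Against doxorubicin alone, 8 were higher and 14 lower, where 21.5% and 20.7% of all genes were.

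Mitosis genes were mostly higher and G1 genes were mixed. Of 31 mitotic genes 22 rose, 7 fell and Cdk1 and Ccna2 were not called (median 0.84). The checkpoint kinase Bub1 had 267, 252 and 270.4 CPM in the combined treatment, against 31.2, 32.1 and 34.8 CPM in the negative control (log2 fold change 3.01 ± 0.08). Separase, Espl1, averaged 162 against 16.7 CPM, Aurka 240.0 against 33.8 CPM and Cdc25c 97 against 15.5 CPM, combined treatment against negative control. Falls were seen for Anln (40.1 against 133 CPM), Cdc25b (26.8 against 65.5 CPM), Aurkb (25.4 against 56.4 CPM), Nuf2, Ect2, Mad2l1 and Nek2. Nek2 did not pass without negative control library 2 or 3 (adjusted p 0.057 and 0.0896), and Cdk1 passed without combined-treatment library 2 (0.00847). Of 24 genes of G1 control 9 rose and 12 fell, where 42.8% of all genes rose and 40.7% fell. E2f2, an E2F activator, had 199, 166 and 165 CPM in the combined treatment, against 2.67, 2.45 and 2.07 CPM in the negative control (6.20 ± 0.13), and cyclin D1 (Ccnd1) had 108, 87.6 and 115 CPM in the combined treatment, against 2.52, 2.23 and 2.03 CPM in the negative control (5.51 ± 0.14). Cyclin D3 and the inhibitor p27 were lower: Ccnd3 averaged 75.8 against 398 CPM and Cdkn1b 81.6 against 923 CPM. The remaining members that rose were E2f8, Ccne2, E2f7, E2f3, Cdk6, Cdk4 and Rbl1, with log2 fold changes of 0.55 (Rbl1) to 3.54 (Ccne2).

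Genes of cell death were called in both directions. Of 21 BCL2 family members and caspases 10 rose, 8 fell and 3 were not called. Among all genes 42.8% rose and 40.7% fell. Mcl1, a short-lived anti-apoptotic protein, had 13.9, 19.1 and 14.4 CPM in the combined treatment, against 140.2, 139 and 143 CPM in the negative control (log2 fold change -3.15 ± 0.11; adjusted p 3.69e-13). Of the pro-apoptotic BH3-only genes 4 rose: Bmf had 56.6, 56.5 and 59.2 CPM in the combined treatment, against 6.92, 6.45 and 5.55 CPM in the negative control (3.18 ± 0.11), Bid averaged 65.6 against 6.49 CPM, Bad 61.7 against 11.8 CPM and Bcl2l11 (BIM) 113 against 28.7 CPM, combined treatment against negative control. The falls included other anti-apoptotic genes, Bcl2l2 (17.3 against 67 CPM), Xiap (33.1 against 100.0 CPM) and Birc2 (14.9 against 31.5 CPM), and pro-apoptotic ones, Bbc3, Apaf1 (63.5 against 138 CPM) and Bak1 (37.5 against 81.3 CPM). Bcl2l1 (BCL-XL) was not called at 22.5 against 20.7 CPM.

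Stress and lipid programmes held members called in both directions, as all genes tested did (42.8% higher and 40.7% lower). In the integrated stress response, 10 of 23 rose and 11 fell. Among those that rose, Phgdh, the first enzyme of serine synthesis, had 738, 638 and 582 CPM in the combined treatment, against 77.2, 80.3 and 83.9 CPM in the negative control (log2 fold change 3.02 ± 0.09), Psph averaged 146 against 28.9 CPM and Shmt2 312 against 73.7 CPM, combined treatment against negative control. The ATF4 partner Cebpg (10.3 against 151 CPM) and the pseudokinase Trib3 (13.2 against 128 CPM) fell. Of 21 endoplasmic reticulum chaperones and unfolded protein genes 10 rose and 8 fell: Hyou1 (848 against 139 CPM), Creld2 (113 against 19.3 CPM), Calr (2203 against 446 CPM) and Pdia6 (945 against 273 CPM) rose, and Hspa5 (BiP) had 411, 462 and 325 CPM in the combined treatment, against 837, 877 and 997 CPM in the negative control (-1.18 ± 0.12). In cholesterol synthesis 10 of 24 rose and 14 fell; Insig1, a sterol sensor, had 19.8, 28.4 and 21.3 CPM in the combined treatment, against 329, 323 and 309.8 CPM in the negative control (-3.79 ± 0.12), Nsdhl averaged 35.3 against 165 CPM and Mvk, mevalonate kinase, 66.2 against 14 CPM. Leaving out combined-treatment library 1 moved the median of the chaperone list to 0.0044 and that of the BCL2 list to 0.0051 on the log2 scale, and upper-quartile scaling moved the G1 median to -0.03; no direction is drawn from these medians.

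The melanocyte markers were present in both groups, with all 7 defining markers (Mitf, Sox10, Tyr, Tyrp1, Dct, Pmel and Mlana) counted. Of 17 tested lineage and pigment genes 10 rose and 6 fell, where 42.8% and 40.7% of all genes did. Mitf, the lineage's master regulator, was not called at 51.3 against 56.6 CPM (adjusted p 0.184, and 0.0337 without combined-treatment library 3). Among those that rose, Mlana had 1751, 1450.4 and 1739 CPM in the combined treatment, against 128, 126 and 133 CPM in the negative control (log2 fold change 3.67 ± 0.09), Pmel averaged 10097 against 1070.5 CPM and Dct 12140.4 against 2662 CPM, combined treatment against negative control. The lineage factors Sox10 (30.7 against 219 CPM) and Pax3 (50.1 against 196 CPM), the melanocortin receptor Mc1r (5.34 against 153 CPM) and the melanosome GTPase Rab38 (11 against 123 CPM) fell. Against doxorubicin alone none of the 17 was higher and 11 were lower, where 21.5% and 20.7% of all genes were. Markers of other cell types were few: of 5 macrophage markers Cd68 was tested (log2 fold change -1.16), of 5 T and B cell markers Cd79a (27.6 against 0.666 CPM), of 4 fibroblast markers Col1a1 (63.1 against 2.05 CPM) and Pdgfra (9.06 against 0.90 CPM), and no endothelial or keratinocyte marker was listed for both groups. Ptprc, Cd3e, Dcn and Col1a2 were among those not listed for both. Their part in the other results was not tested. Cd79a stood at 26.9 CPM in the combined treatment, 0.425 with Hif1a siRNA alone, 24.1 with doxorubicin alone, 0.647 with negative control siRNA and 0.965 in untreated cells.

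Innate immune and antigen presentation genes were mostly higher. Of 25 tested interferon-stimulated and sensing genes 17 rose and 4 fell (median log2 fold change 1.27), where 42.8% and 40.7% of all genes did. Parp14 had 55.4, 60.3 and 60.1 CPM in the combined treatment, against 3.59, 2.9 and 2.79 CPM in the negative control (4.24 ± 0.13), Isg15, a ubiquitin-like modifier, averaged 23.3 against 2.01 CPM, Bst2 73.8 against 14.2 CPM and the DNA sensor Cgas 22.6 against 2.79 CPM, combined treatment against negative control. Ifit2, Eif2ak2 and Rigi were among those that fell, and Sting1 was not called at 18.3 against 20.8 CPM. Rigi did not pass without negative control library 1 or 2 or combined-treatment library 1 (adjusted p 0.0526 to 0.0929), and Sting1 passed without combined-treatment library 1 (0.0385). All 8 tested MHC class I genes rose (median 1.40), where 42.8% of all genes did. All 8 were also higher than with Hif1a siRNA alone, where 42.6% of all genes were. None was higher and 2 were lower than with doxorubicin alone, where 21.5% and 20.7% of all genes were. The peptide transporter Tap1 had 16.6, 19.2 and 16.7 CPM in the combined treatment, against 1.07, 0.377 and 0.995 CPM in the negative control (4.42 ± 0.25), the class I heavy chain H2-D1 averaged 479.6 against 168 CPM, and the light chain B2m 983 against 402 CPM. H2-D1 and H2-K1 are close copies, and reads could be shared. Of 13 tested NF-κB and chemokine genes 9 rose, where 42.8% of all genes did. Among them were Nfkb2 (224 against 48.7 CPM), Csf1 (29.3 against 5.04 CPM), Tnfaip3 (36.5 against 7.95 CPM) and Ccl5 (10.1 against 2.98 CPM). Tnfrsf9, Nfkbia and Nfkb1 fell. Irf7, Ifit1, Oasl2, Usp18, Zbp1, Ifi44 and Gbp3 of the interferon list were not tested. Neither were Psmb8, Psmb9 and Nlrc5 of the MHC list, nor Cxcl1, Cxcl16, Ccl2, Ccl7, Icam1 and Vcam1 of the NF-κB list.

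Immediate early and TGF-β genes were mostly higher. Egr1, an immediate early zinc finger factor, had 249, 205 and 192 CPM in the combined treatment, against 0.222, 0.453 and 0.613 CPM in the negative control (log2 fold change 8.96 ± 0.19; adjusted p 1.74e-14). Fosb averaged 165 against 14.3 CPM, Fos 124 against 26.2 CPM and Ier5 73.7 against 13.3 CPM, combined treatment against negative control. In all 10 of 16 members rose and 5 fell, where 42.8% and 40.7% of all genes did. Ier3 had 24.3, 22.5 and 20.4 CPM in the combined treatment, against 487, 539.6 and 500.1 CPM in the negative control (-4.50 ± 0.09), and Klf6 (55.9 against 309.7 CPM), Jun (121 against 227 CPM), Jund and Fosl2 also fell. Against doxorubicin alone 13 of the 16 were higher in the combined treatment and 1 lower, where 21.5% and 20.7% of all genes were. In the TGF-β list 13 of 17 rose and 3 fell against the negative control, where 42.8% and 40.7% of all genes did. Thbs1, a matrix glycoprotein, had 204, 148 and 170.0 CPM in the combined treatment, against 17, 14.3 and 13.2 CPM in the negative control (3.55 ± 0.13), Ccn2 averaged 43 against 2.6 CPM and the ligands Tgfb1 41.4 against 7.12 CPM and Tgfb2 44.1 against 9.36 CPM. The common mediator Smad4 (21.2 against 121 CPM) and the matricellular Ccn1 (57.3 against 517 CPM) fell.

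**Figure D3:**
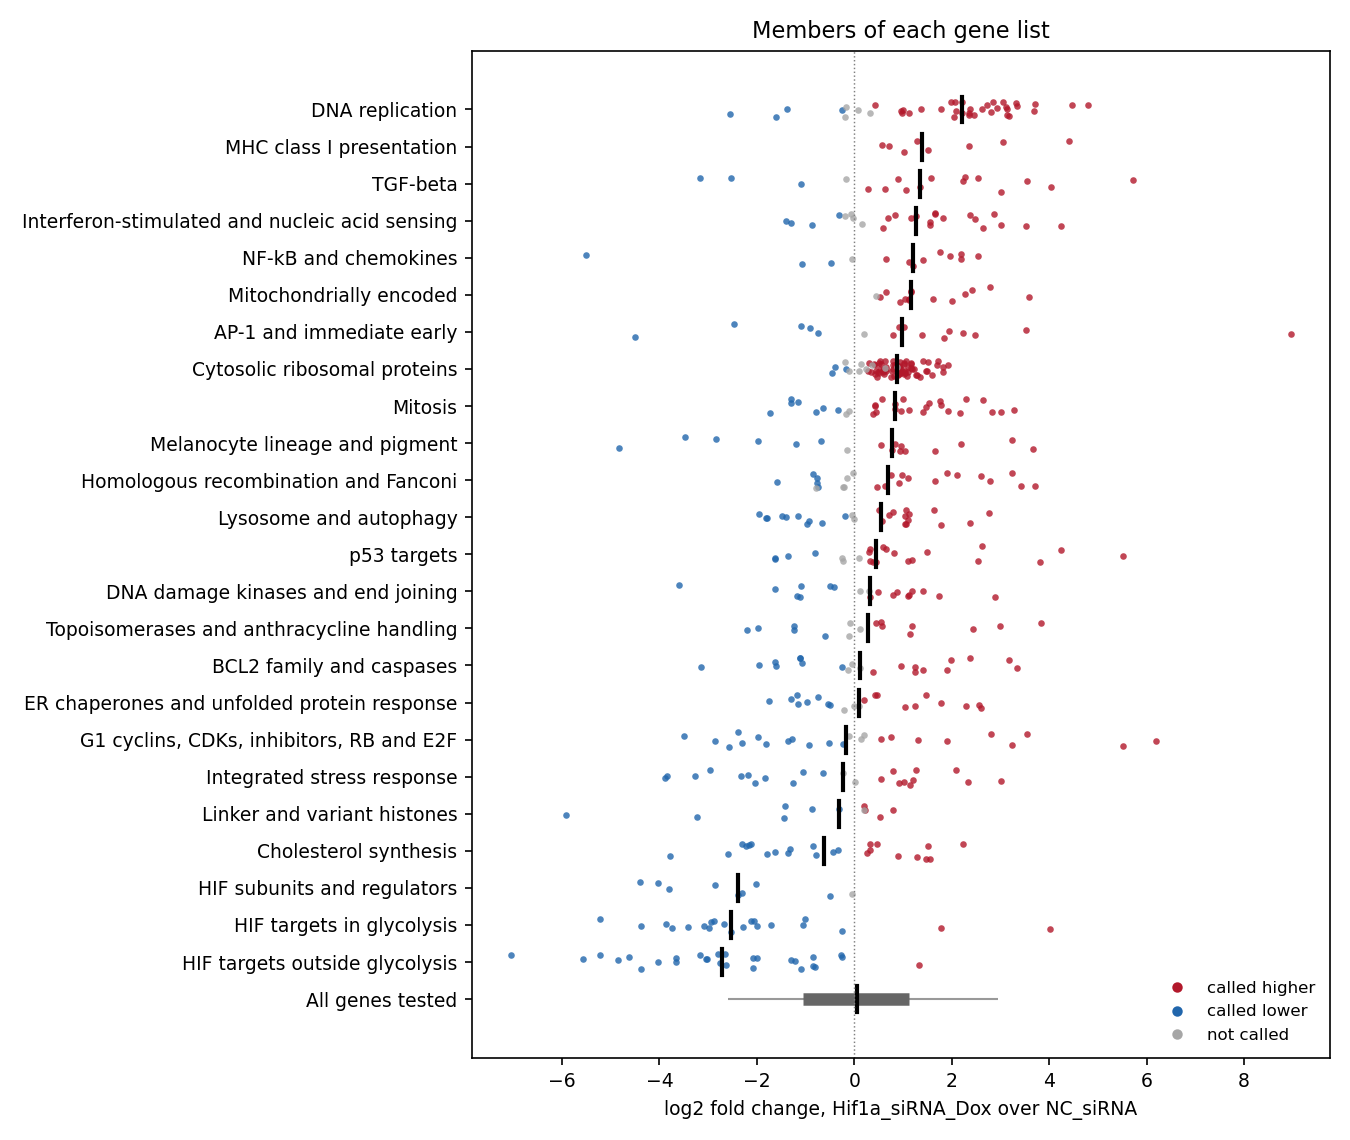
Log2 fold change (combined treatment over negative control) of every tested member of 24 gene lists, red for members called higher, blue for members called lower and grey for members not called, with a black line at each median; the last row gives the 5th, 25th, 50th, 75th and 95th percentiles of all genes tested. The HIF lists lie lowest and DNA replication highest, and most other lists hold members on both sides of 0.

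Ribosomal and mitochondrial genes were mostly higher. Of 81 cytosolic ribosomal protein genes 70 rose and 3 (Rpl22l1, Rpl5 and Rpl3) fell, with a median log2 fold change of 0.88; these genes have many processed copies, so single values are uncertain. Rpl3 did not pass without any 1 negative control library or without combined-treatment library 2 (adjusted p 0.078 to 0.164). Rpsa averaged 4177 ± 134 CPM in the combined treatment and 1181 ± 37.2 CPM in the negative control (SD, n = 3 each). Against doxorubicin alone 70 of the 81 were lower in the combined treatment and 1 higher, where 20.7% and 21.5% of all genes were. Of 15 mitochondrially encoded genes 14 rose (median 1.16) and mt-Atp8 was not called. The ribosomal RNA mt-Rnr2 had 2692, 2427 and 3609 CPM in the combined treatment, against 242, 241 and 240.4 CPM in the negative control (3.59 ± 0.13), and mt-Co3 had 2284, 2107 and 2093 CPM in the combined treatment, against 556, 542 and 524 CPM in the negative control (2.00 ± 0.08). The combined libraries differed among themselves here: mt-Nd5 had 1732, 895 and 1707 CPM in the combined treatment, against 715, 802 and 744 CPM in the negative control, with library 2 close to the negative control. The calls of mt-Nd5 (adjusted p 0.0714 to 0.0808) and mt-Nd2 (0.051 to 0.0591) were lost without any 1 negative control library or combined-treatment library 1, which left 12 of 15 called higher, and mt-Atp8 passed without combined-treatment library 2 (4.52e-06). In the lysosome and autophagy list 14 of 26 rose and 10 fell: Ctsd averaged 4834 against 931 CPM and Gusb 276 against 40.7 CPM, while Ctsa (381 against 1483 CPM), the proton pump subunit Atp6v1a (151 against 523 CPM) and the autophagy receptor Sqstm1 (234 against 818 CPM) fell. Of 11 linker and variant histones 4 rose and 6 fell, with the largest fall in H1f0, the differentiation-linked linker histone, at 20.9, 22.4 and 21.7 CPM in the combined treatment, against 1299, 1282 and 1337 CPM in the negative control (-5.91 ± 0.09). Without negative control library 2, 2 histone genes were called higher. Among all genes 42.8% were called higher and 40.7% lower with all 6 libraries.

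The 10 largest increases, among genes of at least 5 CPM whose groups did not overlap, were Egr1, Tent5c, Vdr, Epha4, Rhpn2, Cyp26b1, Crabp2, Hes1, Trim36 and Spag1. All 10 were near 0 in the negative control, at 0.212 (Crabp2) to 1.39 (Cyp26b1) CPM on average. Genes not listed for the negative control had no fold change here and were outside this ranking. Tent5c, a poly(A) polymerase, had 167, 155 and 147 CPM in the combined treatment, against 0.296, 0.528 and 0.383 CPM in the negative control (log2 fold change 8.59 ± 0.15). Vdr, the vitamin D receptor, had 56.8, 43.9 and 56.1 CPM in the combined treatment, against 0.37, 0.151 and 0.345 CPM in the negative control (7.48 ± 0.22). A pair of genes handles retinoic acid: Cyp26b1, which degrades it, averaged 202 ± 16.6 CPM in the combined treatment and 1.39 ± 0.493 CPM in the negative control, and Crabp2, which carries it to the nucleus, 29 ± 5.34 CPM in the combined treatment and 0.212 ± 0.119 CPM in the negative control (SD, n = 3 each). Epha4, an ephrin receptor, averaged 85.7 against 0.527 CPM and Hes1, a Notch target, 29.3 against 0.303 CPM, combined treatment against negative control. In the 15-library fit Tent5c had 152 CPM in the combined treatment, 1.63 with Hif1a siRNA alone, 154 with doxorubicin alone, 0.391 with negative control siRNA and 0.424 in untreated cells, and the difference from doxorubicin alone did not pass the test (-0.02 ± 0.09 on the log2 scale, adjusted p 0.876).

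The 10 largest decreases were Car9, Arfgef3, Neat1, H1f0, H2ac25, Bhlhe41, Tnfrsf9, Pcmtd2, Eno2 and Kctd16. Arfgef3 had 3.51, 3.8 and 3.72 CPM in the combined treatment, against 277, 262 and 255 CPM in the negative control (log2 fold change -6.17 ± 0.10). Neat1, the long noncoding RNA that builds paraspeckles, had 10.3, 12.2 and 10.4 CPM in the combined treatment, against 459, 915 and 676 CPM in the negative control (-5.96 ± 0.34; adjusted p 2.19e-05), with wide spread in the negative control. H2ac25 varied more, at 0.219, 0.167 and 0.251 CPM in the combined treatment, against 1.78, 12.7 and 16.2 CPM in the negative control (-5.57; adjusted p 0.00903). Tnfrsf9, the costimulatory receptor 4-1BB, had 2.12, 1.47 and 1.25 CPM in the combined treatment, against 68.8, 75.5 and 77.1 CPM in the negative control (-5.50 ± 0.15). Eno2, the neuronal enolase, averaged 8.67 ± 2.29 CPM in the combined treatment and 326 ± 25.1 CPM in the negative control (SD, n = 3 each). Neat1 stood at 10.7 CPM in the combined treatment, 603 with Hif1a siRNA alone, 6.94 with doxorubicin alone, 663 with negative control siRNA and 726 in untreated cells, low in both groups with doxorubicin, whereas Tnfrsf9 stood at 1.57 CPM in the combined treatment, 1.23 with Hif1a siRNA alone, 2.52 with doxorubicin alone, 71.7 with negative control siRNA and 34.3 in untreated cells, low with either agent.

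**Figure D4:**
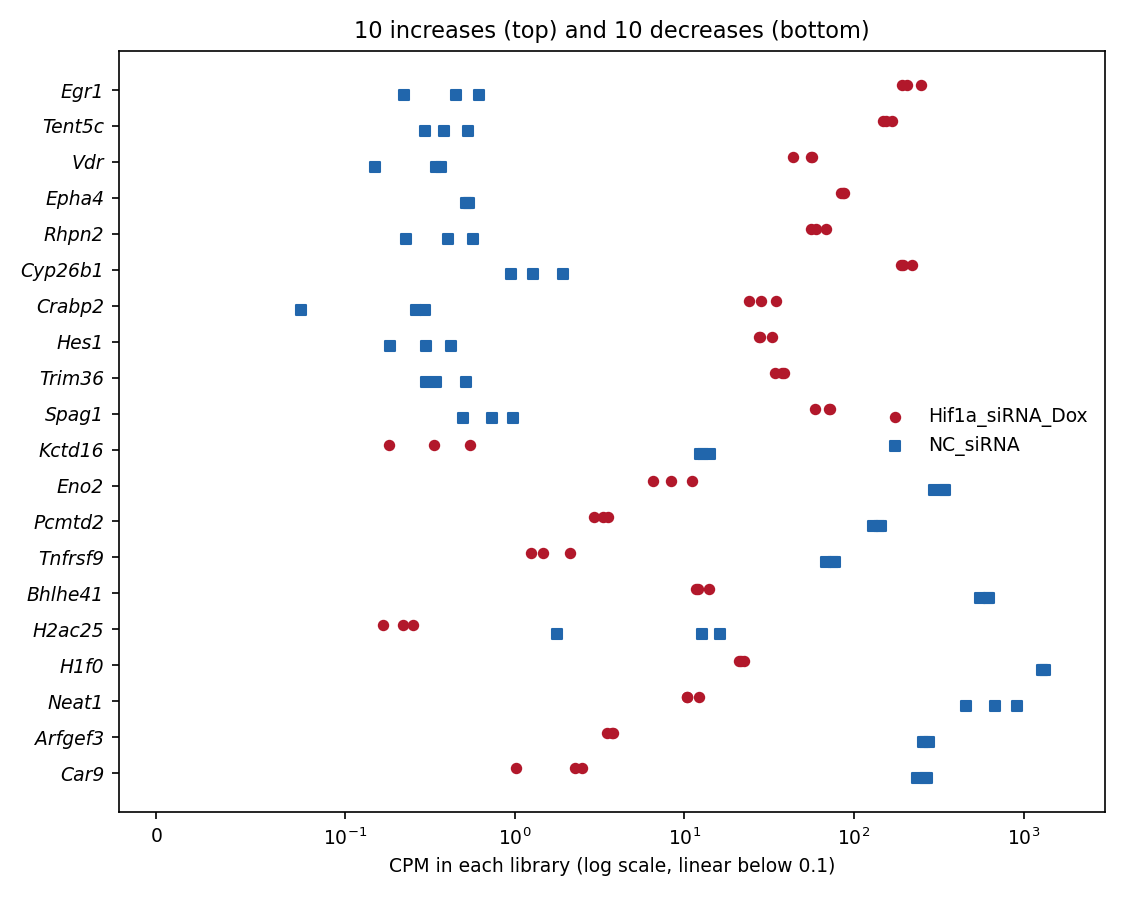
CPM in each of the 6 libraries for the 10 largest increases (upper rows) and the 10 largest decreases (lower rows), with circles for the combined treatment above squares for the negative control, on an axis that is logarithmic above 0.1 CPM. The libraries of the groups do not overlap in these 20 genes, and H2ac25 has the widest spread in the negative control.

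Levels beyond those of every other group were uncommon. In the 15-library fit 31 of 12721 genes (0.244%) were at least 2-fold above and 81 (0.637%) at least 2-fold below each of the 4 other groups, with adjusted p under 0.05 in all 4 contrasts. The 5 furthest above were Trib1, Zfp473, Ppp1r10, Gsta3 and Id1. Trib1, a pseudokinase that directs protein degradation, had 19.8 CPM in the combined treatment, 3.68 with Hif1a siRNA alone, 6.07 with doxorubicin alone, 1.22 with negative control siRNA and 0.408 in untreated cells. Id1, an inhibitor of basic helix-loop-helix factors, had 88 CPM in the combined treatment, 5.72 with Hif1a siRNA alone, 31.3 with doxorubicin alone, 0.99 with negative control siRNA and 4.76 in untreated cells. Ppp1r10, a nuclear regulator of protein phosphatase 1, had 124 CPM in the combined treatment, 15.3 with Hif1a siRNA alone, 39.3 with doxorubicin alone, 4.0 with negative control siRNA and 3.12 in untreated cells. In each of the 3, doxorubicin alone was second highest.

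Also among the 31 were the immediate early genes Egr1 and Ier2, the Wnt target Axin2, Ccn2, Hes1, Id3, the heat shock genes Hspa1a and Hspa1b, the clock gene Bmal1 and mt-Nd3; these were picked after their values were seen. Egr1 had 209 CPM in the combined treatment, 0.507 with Hif1a siRNA alone, 94.9 with doxorubicin alone, 0.417 with negative control siRNA and 0.891 in untreated cells. Axin2 had 87.6 CPM in the combined treatment, 18 with Hif1a siRNA alone, 31.9 with doxorubicin alone, 8.06 with negative control siRNA and 3.21 in untreated cells. Hspa1a and Hspa1b are near-identical copies, and Hspa1b had 108 CPM in the combined treatment, 12.3 with Hif1a siRNA alone, 41.9 with doxorubicin alone, 3.77 with negative control siRNA and 31.3 in untreated cells. Untreated cells were above the transfected, drug-free groups for Hspa1b.

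Among the 81 below every group the furthest were Snord14d, Snord14e, Pcdhga3, the pseudogene Gm8652 and Tmem53. Each averaged under 1 CPM in the combined treatment, and Snord14d had 0.0725 CPM in the combined treatment, 0.855 with Hif1a siRNA alone, 0.624 with doxorubicin alone, 1.3 with negative control siRNA and 3.25 in untreated cells. With a minimum of 5 CPM in the highest group and without pseudogenes and clone names, they were Car9, Setdb2, Mcts2, Aldoa and Spaca6. Setdb2, a histone methyltransferase homologue, had 0.961 CPM in the combined treatment, 14.5 with Hif1a siRNA alone, 3.36 with doxorubicin alone, 6.71 with negative control siRNA and 6.54 in untreated cells. Its doxorubicin-alone libraries varied widely, by 2.62 CPM (SD, n = 3). Ctnnb1, β-catenin, was also in the set, at 148 CPM in the combined treatment, 943 with Hif1a siRNA alone, 321 with doxorubicin alone, 676 with negative control siRNA and 861 in untreated cells, as was the mitochondrial glycerol phosphate dehydrogenase Gpd2, at 7.22 CPM in the combined treatment, 40.7 with Hif1a siRNA alone, 19.2 with doxorubicin alone, 68.2 with negative control siRNA and 63.3 in untreated cells. These counts depend on single libraries: without doxorubicin library 2 there were 56 genes above, and without combined-treatment library 3, the shallowest, there were 168 below. Restricted to protein-coding nuclear genes, which leaves out pseudogenes and noncoding RNAs, 48 lay below, 44 of them among the 81.

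Genomic span separated the directions by a modest amount. Among 11168 protein-coding genes tested, those called higher had a median span of 18.3 kb and those called lower 31.7 kb, from start to end of the RefSeq gene on GRCm38.p6. In 5 classes of equal size and increasing span, the median log2 fold change was 0.50 (median span 4.74 kb), 0.33 (12.8 kb), 0.10 (24.1 kb), -0.24 (45.5 kb) and -0.45 (118 kb). The share of genes called higher was 55.6% in the shortest class and 30.5% in the longest. The share called lower was 29.4% in the shortest class and 54.5% in the longest. Across the genes Spearman's rho was -0.20 and Pearson's r, with log10 span, -0.18. Genes are not independent replicates, and the spans were compared within the same 6 libraries. HIF targets had median spans of 22.8 kb for glycolysis and 18.6 kb outside it, against 16.1 kb for DNA replication and 3.17 kb for ribosomal proteins. Some lists with longer spans had positive median log2 fold changes. Among them were homologous recombination and Fanconi genes (50.1 kb, 0.69), DNA damage kinases and end joining (52.3 kb, 0.33) and TGF-β (34.6 kb, 1.35).

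**Figure D5:**
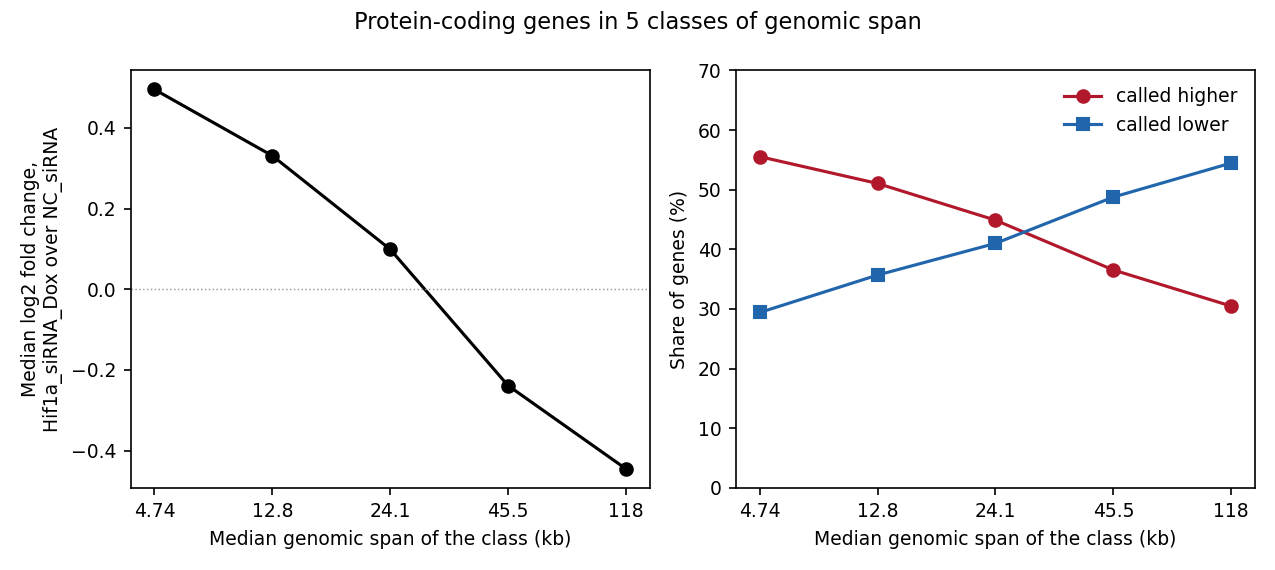
Protein-coding genes in 5 classes of genomic span, labelled by the median span of each class in kb: the left panel gives the median log2 fold change (combined treatment over negative control) and the right panel the share of genes called higher (circles) and lower (squares). The median is 0.50 in the shortest class and -0.45 in the longest.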

How the data were processed

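Total RNA of B16.F10 cells was sequenced after TruSeq Stranded mRNA library preparation, per the labels' protocols. The authors deposited raw read counts per gene, with no normalization; per the submitters' processing notes the build was mm10 and the tools included StringTie 2.1.3b, Bowtie2 2.3.4.1, HISAT2 2.1.0, Trimmomatic 0.38 and FastQC 0.11.7. How strand was handled in counting is not given in the sources used here, so reads of overlapping and antisense genes may be shared. In each table, all listed genes reach 10 reads in 3 or more libraries when its own 3 are taken with the 3 of Control, so a gene low in both Control and NC_siRNA is not in the NC_siRNA table.

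The deposited counts of the 6 libraries were joined by gene ID (12777 genes listed in both groups), and symbols missing from the files were taken from RefSeq by ID for 1491 of 13172 genes, with 29 left without one. Repeated rows were dropped. The filter filterByExpr removed 52 genes. edgeR 4.0.16 (R 4.3.3) was run with TMM scaling, robust quasi-likelihood fits and 2-sided tests, with Benjamini-Hochberg adjustment over 12725 genes. A second fit of all 15 libraries tested 12721 genes listed in all 5 groups. The fitting script was tested on simulated counts in which 200 of 12725 genes were changed. It recovered 50.7% of 1.5-fold, 91% of 2-fold and 100% of 4-fold changes, and 6.9% of its calls were unchanged genes. Far fewer genes changed there than were called here, so the simulation does not test scaling when most genes change. Alternatives were DESeq2 1.42.0, other scaling factors, filters and thresholds, a replicate block, each library left out, and, chosen after seeing the data, protein-coding nuclear genes only. The labels give no batch or date.

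Named genes were Hif1a, the 10 largest increases and decreases (called, at least 5 CPM, no overlap, no clone names), any member of lists of up to 20 tested genes, the 4 of smallest adjusted p and the exceptions in longer lists, and the 5 furthest outside every group; some genes that the rule names are not reported here. The members and lists were chosen with earlier results of these data known. Promoter windows and gene spans came from RefSeq on GRCm38.p6; 9575 tested genes had a window. Replicates of the combined treatment differed by 24.5 to 33.7 and those of the negative control by 5.75 to 8.41 chi-square per degree of freedom, so none was a repeat of another library.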

Additional observations from a re-analysis of the deposited data

Results flagged for a closer look

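Genes listed for the combined treatment but not for the negative control lie outside the comparison. There were 296, of which 140 are protein-coding, and 49 averaged at least 5 CPM in the combined treatment. In 251 of the 296, all 3 combined-treatment libraries lay above all 3 untreated (Control) libraries. This was largely set by the listing: a gene missing for the negative control is low in Control, and enters through the combined-treatment libraries. The Control levels below are therefore no separate support. Levels in the negative control were not analysed here. The values below are CPM on each library's plain total. Mest, an imprinted gene, averaged 118 CPM in the combined treatment and 0.57 CPM in Control. Gli1, the Hedgehog pathway's transcription factor and target, averaged 33.7 CPM in the combined treatment and 0.34 CPM in Control. The other 4 of the 6 highest protein-coding genes were Rflnb at 31.7 CPM, Entrep3 at 28.3 CPM, the metalloprotease Adam8 at 26.9 CPM and the opsin Opn3 at 24.0 CPM in the combined treatment, with 0.19 to 0.38 CPM in Control. Causes were not tested.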

How the results depend on the processing

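The counts of genes called stayed within 1.5 times the reported ones (5447 higher, 5177 lower) under every alternative run: 4872 to 5861 higher and 4719 to 5310 lower. The median of all genes shifted by 0.14 (log2) with upper-quartile factors, which gave 5861 higher and 4762 lower; leaving out 1 library gave 5218 to 5373 higher and 4943 to 5227 lower. Replicate numbers did not pair the samples: deviations of same-numbered libraries correlated at 0.03, -0.03 and 0.05, and the fit with the replicate block gave 5392 higher and 5173 lower. The sets outside every other group moved more. Leaving out 1 library gave 29 to 56 genes above and 69 to 168 below, where the fit of all libraries gave 31 and 81. The cause was not tested. Protein-coding nuclear genes alone gave 48 below, 44 of them among the 81. That setting leaves out pseudogenes and noncoding RNAs, which the 81 include. The mitochondrial share differed by 2.73 percentage points, and by 2.12 without the mitochondrial ribosomal RNAs. Among 567 named genes and list members none reversed, 59 crossed the threshold under some alternative, 115 times losing and 41 times gaining a call. The median of the histone list turned to 0.19 with a 1 CPM filter. Depth limits genes near the 10-read listing minimum.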
